A study of Homo sapiens with 6 samples.

Results

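The autophagy and lysosome genes examined here are 39 gene symbols of the 38557 in the deposited count files, chosen by name from the core autophagy machinery, autophagy receptors, lysosomal hydrolases, lysosomal membrane proteins and the proton pump. Their transcripts were counted by RNA sequencing of cardiomyocytes made from WTC11, a widely used line of human induced pluripotent stem cells, so all cultures share the genetic background of 1 line. The cells were kept in RPMI plus B27 (a basal medium with a serum-free supplement) or in DMEM plus fatty acids (another basal medium with added lipids), with 3 biological replicates of each. The labels name no other treatment, and neither the make-up of the media nor the time spent in them is given, so the basal medium, the supplement and the fatty acids cannot be told apart. They also do not say what separates the replicates, so p-values measure the spread between these samples. The question is whether transcripts of the 9 functional sub-groups differ between these media, each taken as a whole. Gene counts ranged from 23232324 to 31035389 per library, and the 39 genes took between 0.347% and 0.457% of them.

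All 12 cardiomyocyte markers (TNNT2, MYH6, TTN and others) were detected in every library, with a summed level of 27864 to 33652 CPM (read counts normalised to library size, with TMM scaling) in RPMI plus B27 and 22211 to 30557 CPM in DMEM plus fatty acids. Transcripts of macrophages, a lysosome-rich cell type, were near the detection limit. The 9 macrophage markers summed to 1.49 to 2.22 CPM and 0.736 to 1.45 CPM, and 8 of them averaged under 1 CPM. Fibroblast and stromal markers moved with the medium. They summed to 8491, 5413 and 4353 CPM in RPMI plus B27 replicates 1 to 3 and to 761, 1962 and 1812 CPM in DMEM plus fatty acids, and 6 of the 13 that could be tested were lower in DMEM plus fatty acids (edgeR adjusted p under 0.05). Smooth muscle markers summed to 1946 to 2284 CPM against 578 to 1353 CPM, with 1 of 6 lower, and epicardial markers to 1691 to 2237 CPM against 798 to 1023 CPM, with 1 of 4 lower. Nearly all of the epicardial sum came from the keratins KRT8 (means of 1301 and 606 CPM), the called gene, and KRT18 (689 and 336 CPM). The next highest of that list was TBX18, at 4.98 and 1.10 CPM, so the sum says little about the other epicardial markers. Endothelial, hepatic and pluripotent marker lists had no called gene. With the replicate number as a block, 9 fibroblast, 3 epicardial, 2 smooth muscle and 2 cardiomyocyte markers (MYH7 and ACTN2) were lower in DMEM plus fatty acids. The cardiomyocyte list went both ways in the main fit. There 5 of 12 were on the higher side, MYH6 by 0.86 on the log2 scale (edgeR adjusted p = 0.166). With the block the hepatic marker AFP was lower and KDR, from the endothelial list, higher (edgeR adjusted p = 0.0245). The other 2 tested endothelial markers, TEK and TIE1, averaged under 1 CPM and were on the lower side (log2 fold changes of -2.07 and -0.98). No marker of any list was at 0 in all 6 libraries. In bulk RNA fewer cells of a type and less RNA per cell cannot be told apart, and the part of these other cell types in the values below was not tested.

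Autophagy delivers cytoplasm to the lysosome inside a double membrane. The ULK kinase complex and a phosphatidylinositol 3-kinase complex start the process, lipid transfer proteins and WIPI proteins extend the membrane, and a ubiquitin-like conjugation system attaches ATG8 proteins to it, where they bind cargo receptors. The lysosome then degrades the content with acid hydrolases, and a proton pump, the V-ATPase, keeps its lumen acidic. In the heart this route removes damaged mitochondria and protein aggregates, and inherited loss of LAMP2 or GAA causes cardiomyopathy. Many lysosomal genes carry a palindromic E-box in their promoters that is bound by TFEB, TFE3 and MITF.

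Because that element links the hydrolases, membrane proteins and pump subunits, the promoters that hold it are shown first. They were read from RefSeq on GRCh38.p14, from 250 bases before to 50 after each annotated start, and 32 of the 39 genes matched an entry. CACGTG was found in 10 of the 32 (31.2%), against 8.77% of all 27305 gene symbols in the same table and 7.26% of its 35116 promoters. The longer TCACGTGA, which contains CACGTG, was found in 6 of 32 (18.75%), namely ATG3, LAMP1, MCOLN1, CTSA, GAA and ATP6V0D1, against 1.18% of symbols. The symbols include genes that were not tested here, and the strings were more frequent among tested genes. Of tested genes with an entry, 1456 held CACGTG and 10551 did not, while 250 held TCACGTGA and 11757 did not. Both strings are their own reverse complement, so 1 search covers both strands. By role, matches to CACGTG lay in 2 of 2 lysosomal membrane genes, 3 of 5 cathepsins, 2 of 4 glycan and lipid hydrolases and the 1 proton pump gene with an entry. Among autophagy genes they lay in 1 of 4 initiation genes (ATG14) and 1 of 5 conjugation genes (ATG3), and in none of the membrane supply, ATG8 and receptor genes. A match is a string of letters and not a measured binding site. The LAMP1 window lies at chr13:113297039-113297238 on the plus strand and ends at the base before the start. MCOLN1 is shown at chr19:7522564-7522623 (plus), CTSA at chr20:45891275-45891334 (plus), GAA at chr17:80101491-80101561 (plus), ATP6V0D1 at chr16:67481197-67481237 (minus), CTSD at chr11:1763947-1763987 (minus) and NEU1 at chr6:31862921-31862961 (minus). Capitals mark each CACGTG, and a t before and an a after it make up the longer string.
LAMP1: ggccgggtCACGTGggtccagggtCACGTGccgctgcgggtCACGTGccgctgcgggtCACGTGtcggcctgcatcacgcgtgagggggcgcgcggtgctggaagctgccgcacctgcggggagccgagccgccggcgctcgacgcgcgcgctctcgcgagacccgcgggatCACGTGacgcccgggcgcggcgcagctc
MCOLN1: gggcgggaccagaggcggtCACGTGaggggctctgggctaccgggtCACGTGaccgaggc
CTSA: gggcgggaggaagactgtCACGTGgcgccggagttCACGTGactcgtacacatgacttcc
GAA: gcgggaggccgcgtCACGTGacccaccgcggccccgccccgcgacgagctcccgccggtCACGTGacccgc
ATP6V0D1: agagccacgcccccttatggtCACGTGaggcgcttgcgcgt
CTSD: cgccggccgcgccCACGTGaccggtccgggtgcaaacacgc
NEU1: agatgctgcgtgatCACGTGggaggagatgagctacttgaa
LAMP1 holds 6 CACGTG strings in its promoter entry, of which 5 lie wholly before the start and are visible here. MCOLN1 and GAA each hold 2 copies of the longer string, CTSA holds 1 of the longer and 1 of the shorter only, ATP6V0D1 holds 1 of the longer, and CTSD and NEU1 hold the shorter string alone.

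None of the 38 genes with enough counts to test differed between media at an adjusted p under 0.05 (edgeR quasi-likelihood test, adjusted over all 16107 genes tested), where 1.36% of all genes tested were called. CTSF was the gene left out of the test. The smallest adjusted p among the 38 was 0.158 (CTSB), and the DESeq2 Wald test called that gene alone among them. With the replicate number as a block no member passed either, against 4.78% of all genes, and the smallest adjusted p was 0.0540 (CTSB). At an unadjusted p under 0.05 there were 7 members (18.4%), a share close to the 17.7% of all genes. The 6 higher in DMEM plus fatty acids were ATG14, MAP1LC3B, CTSD, CTSL, NEU1 and ATP6V1H, and the lower was CTSB. The 3 libraries of one medium lay wholly above those of the other for 14 of 38 members (36.8%), 10 of them higher in DMEM plus fatty acids, against 25.6% of all genes. A positive log2 fold change (positive where the level was higher in DMEM plus fatty acids, as throughout) was fitted for 24 of 38 members, against 51.0% of all genes.

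The median log2 fold change was -0.01 over the 21 autophagy genes, with 10 of 21 positive, and 0.28 over the 17 tested lysosome genes, with 14 of 17 positive, beside 0.01 over all genes tested. By role, the medians were 0.06 for initiation, 0.02 for membrane supply, 0.11 for conjugation, -0.06 for ATG8 proteins and -0.10 for receptors. They were 0.31 for the lysosomal membrane, 0.43 for cathepsins, 0.21 for glycan and lipid hydrolases and 0.26 for the proton pump. Scaling to total counts alone, which moves the median of all genes from 0.01 to 0.12, turns the ATG8 and receptor medians positive and leaves the sign of the other 7. The replicate block turns the membrane supply median to -0.022. The difference between autophagy and lysosome genes has no test of its own, and without RPMI plus B27 replicate 1 the medians were 0.06 and 0.18.

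These differences were about as large as those of other genes, and their errors were smaller. The median absolute log2 fold change was 0.23 over the tested members and 0.25 over all genes, and the median standard error was 0.14 against 0.22. A call at the adjusted threshold needed an absolute log2 fold change of 0.55 (WIPI2) to 1.68 (WIPI1), with a median of 0.78 over the members. The 95% interval of the difference lay within 1 log2 unit either way for 35 of 38 members, the exceptions being MAP1LC3A, CTSB and CTSD, and within 0.5 for 11.

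**Figure D1:**
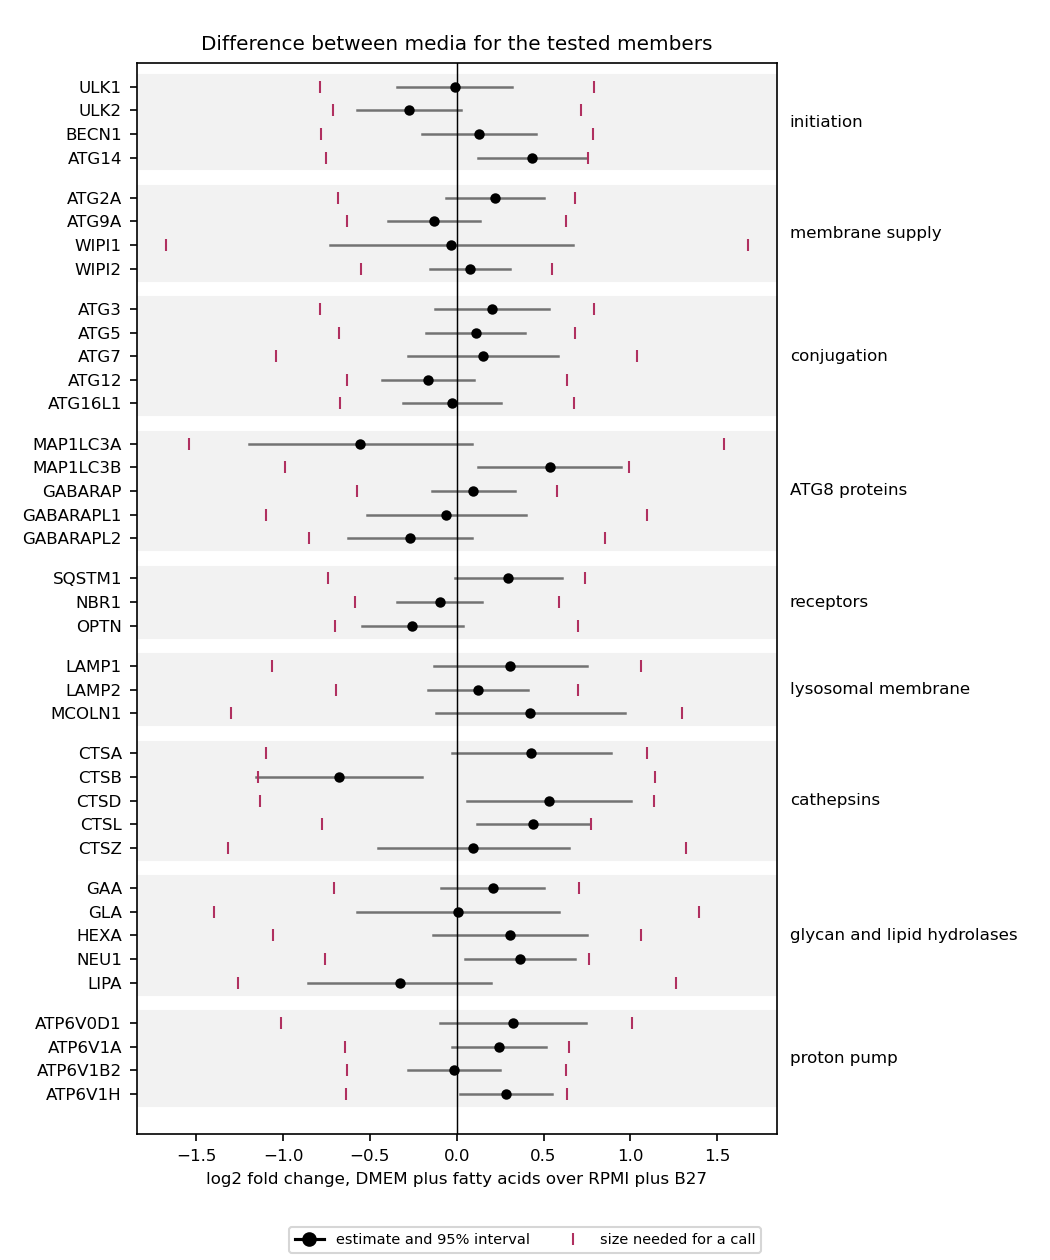
Fitted log2 fold change (horizontal axis, the ratio of DMEM plus fatty acids to the other medium, n = 3 per medium) of the 38 tested autophagy and lysosome genes, grouped by role. Points are estimates, bars 95% intervals and red ticks the size a gene needed to be called; every estimate lies inside its ticks, CTSB at -0.68 is the lowest and MAP1LC3B at 0.53 the highest.

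Initiation genes had ATG14 at one end and ULK2 at the other. ATG14, the subunit that directs the phosphatidylinositol 3-kinase complex to autophagy, stood at 23.9, 23.3 and 19.9 CPM in RPMI plus B27 replicates 1 to 3 and at 28.3, 30.6 and 31.9 CPM in DMEM plus fatty acids. All 3 values in DMEM plus fatty acids were above all 3 in RPMI plus B27, by 0.44 ± 0.13 on the log2 scale (estimate ± SE, adjusted p = 0.165). ULK2, one of a pair of initiating kinases, was the reverse, with 43.3, 39.4 and 38.5 CPM against 30.4, 32.7 and 36.8 CPM and no overlap (-0.28 ± 0.13, adjusted p = 0.317). Its partner ULK1 was at 106.36 ± 15.03 and 105.44 ± 10.65 CPM (mean ± SD, n = 3). BECN1, a scaffold of the lipid kinase complex, was at 52.7 ± 8.2 and 57.6 ± 1.5 CPM, and its lowest library was RPMI plus B27 replicate 1 at 43.3 CPM.

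Among the membrane supply genes, ATG2A, a lipid transfer protein, had the smallest p. It was at 51.1, 49.1 and 61.4 CPM in RPMI plus B27 and at 62.5, 63.1 and 62.8 CPM in DMEM plus fatty acids (0.22 ± 0.12, adjusted p = 0.394). ATG9A, the transmembrane scramblase of the vesicles that seed the membrane, averaged 171.7 ± 8.7 and 156.9 ± 11.9 CPM, and WIPI2, which recruits the conjugation complex, 77.2 ± 3.5 and 81.4 ± 2.0 CPM. WIPI1, a related lipid-binding protein, had close means and a wide spread within 1 medium. It ran from 25.8 to 28.3 CPM in RPMI plus B27, while DMEM plus fatty acids replicates 1 to 3 gave 38.7, 24.0 and 15.7 CPM, the highest and the lowest of all 6 libraries. The sign of its difference therefore depended on which library was left out (-0.43 to 0.24).

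The 5 conjugation genes had standard errors of 0.11 to 0.19 and estimates between -0.17 and 0.20. ATG12, the ubiquitin-like protein joined to ATG5, was at 47.3, 51.8 and 44.6 CPM in RPMI plus B27 and at 43.6, 41.3 and 43.2 CPM in DMEM plus fatty acids (-0.17 ± 0.11, adjusted p = 0.487). Its values did not overlap between media. ATG3, the enzyme that transfers ATG8 proteins to lipid, averaged 34.8 ± 3.6 and 40.1 ± 4.5 CPM with overlap. ATG5 averaged 29.5 ± 2.3 and 31.9 ± 1.0 CPM, ATG7, the activating enzyme of the system, 11.97 ± 1.59 and 13.28 ± 1.87 CPM, and ATG16L1, which positions the complex on the membrane, 32.4 ± 1.2 and 31.7 ± 2.3 CPM. Per kilobase of exon ATG7 was the lowest tested member in both media, at 2.41 and 2.68.

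The ATG8 proteins are paralogs that coat the growing membrane, and their transcripts differed in sign among themselves. MAP1LC3B, the member used most often as a marker of autophagosomes, was at 96.1, 143.8 and 120.0 CPM in RPMI plus B27 and at 198.6, 170.2 and 152.4 CPM in DMEM plus fatty acids. Every value in DMEM plus fatty acids exceeded every value in RPMI plus B27, by 0.53 ± 0.18 (adjusted p = 0.184, and 0.114 to 0.386 over the alternatives). Within each library MAP1LC3B made up 15.8%, 23.4% and 22.8% of the counts of the 5 genes in RPMI plus B27 and 30.4%, 27.8% and 26.3% in DMEM plus fatty acids. GABARAPL2 had the opposite order of shares, 20.4% ± 2.3 against 16.1% ± 0.68, so the MAP1LC3B to GABARAPL2 count ratio was 1.04 ± 0.30 and 1.75 ± 0.20. These shares were computed after the values were seen and are given as a description. In CPM GABARAPL2 overlapped between media, at 119.4 ± 22.3 and 99.0 ± 2.8. MAP1LC3A was the least abundant and rested on 1 library, with 48.9, 30.6 and 23.5 CPM in RPMI plus B27 and 20.6, 27.8 and 21.8 CPM in DMEM plus fatty acids. Its log2 fold change of -0.55 became -0.21 without RPMI plus B27 replicate 1. GABARAP was at 204.7 ± 8.0 and 218.8 ± 3.0 CPM, the tightest of the 5. Its values also did not overlap, with at most 212.3 CPM in RPMI plus B27 and at least 215.8 CPM in DMEM plus fatty acids. The difference was small (0.10 ± 0.10, edgeR adjusted p = 0.671). GABARAPL1 was at 104.5 ± 24.7 and 100.3 ± 15.6 CPM. Per kilobase of exon the order in RPMI plus B27 was GABARAP (90.4), GABARAPL2 (87.6), MAP1LC3B (39.8), GABARAPL1 (35.0) and MAP1LC3A (19.5). The first pair and the next pair each overlapped across libraries, as did GABARAPL1 and MAP1LC3A.

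The 3 cargo receptors link ubiquitinated cargo to ATG8 proteins. SQSTM1 was at 165.6, 167.4 and 152.5 CPM in RPMI plus B27 and at 227.4, 173.6 and 195.8 CPM in DMEM plus fatty acids, without overlap (0.30 ± 0.13, adjusted p = 0.299). OPTN, a receptor also used in mitophagy, had the opposite order with 105.6, 90.1 and 81.7 CPM against 80.6, 76.7 and 74.8 CPM (-0.26 ± 0.12, adjusted p = 0.338). NBR1, which binds aggregates together with SQSTM1, averaged 156.6 ± 8.5 and 146.3 ± 5.5 CPM.

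**Figure D2:**
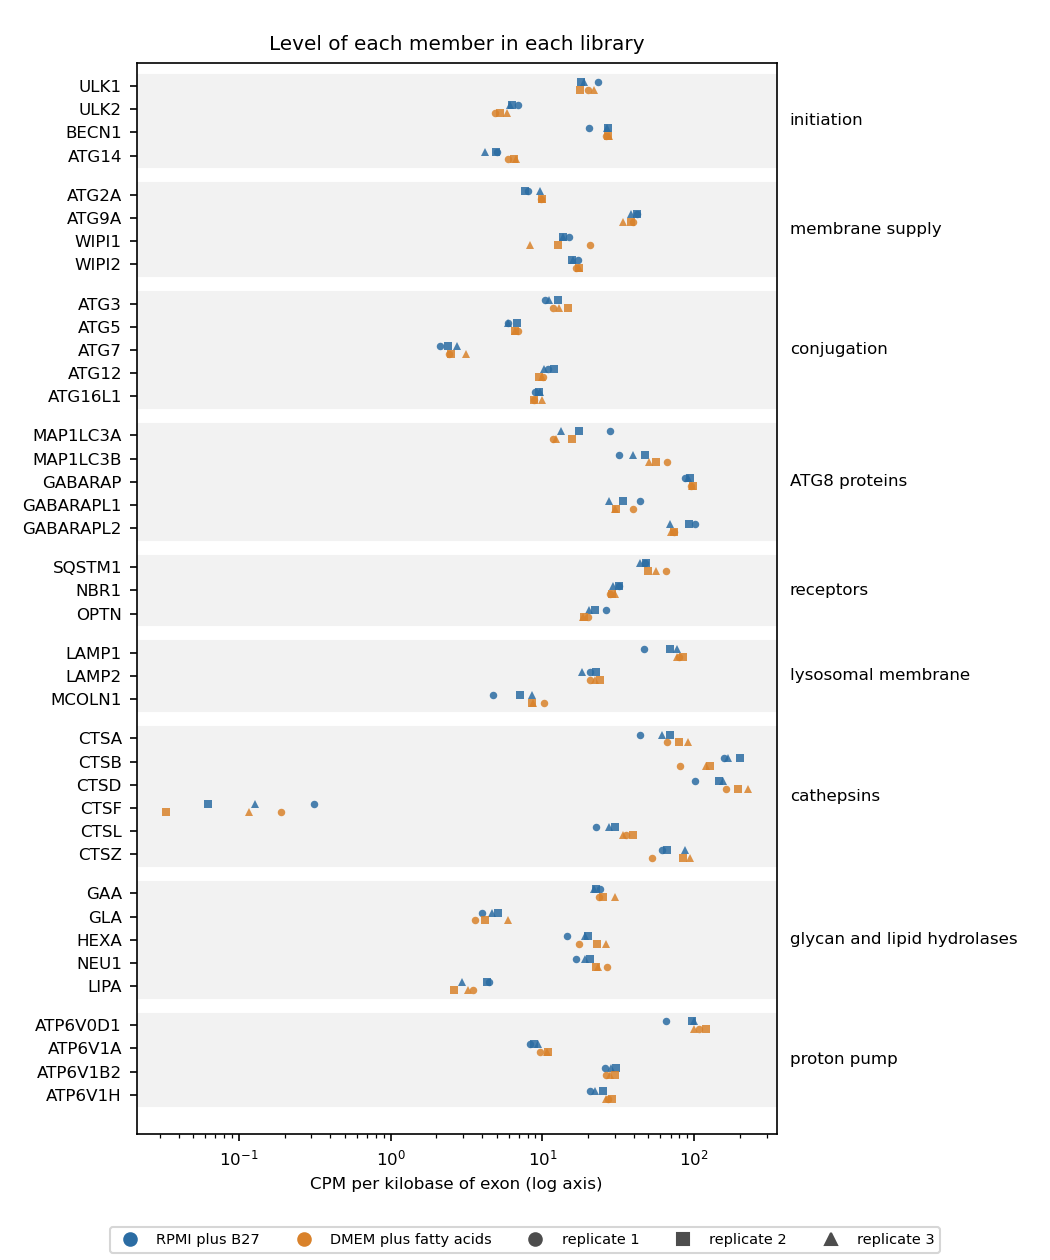
Level of each of the 39 genes in each library, as CPM per kilobase of exon on a log axis, with blue for RPMI plus B27, orange for DMEM plus fatty acids and the marker shape for the replicate number. CTSB and CTSD lie at the top of the range, CTSF lies far below all other genes, and the media overlap or nearly touch for most genes.

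None of the lysosomal membrane genes passed the test, and in LAMP1 and MCOLN1 the estimate rested largely on a single library. LAMP1, the abundant membrane glycoprotein that lines the organelle, was at 125.8, 188.4 and 207.8 CPM in RPMI plus B27 and at 213.5, 226.8 and 206.7 CPM in DMEM plus fatty acids. MCOLN1, the calcium channel that signals lysosomal state, was at 9.83, 14.8 and 17.7 CPM against 21.3, 17.69 and 17.96 CPM (0.42 ± 0.23, adjusted p = 0.390). In both genes RPMI plus B27 replicate 1 was below all of the other 5 libraries, and without it the log2 fold changes went from 0.31 to 0.12 for LAMP1 and from 0.42 to 0.22 for MCOLN1. LAMP2, whose isoforms serve fusion and chaperone-mediated autophagy and are not separated in counts per gene, averaged 113.2 ± 12.4 and 123.1 ± 8.8 CPM, and its estimate was 0.12 with all libraries and 0.13 without that one.

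The cathepsins CTSB and CTSD were among the 3 highest genes per kilobase in both media, and CTSB had the largest absolute estimate of the 38 genes and the only negative one of the 5 tested cathepsins. CTSB, a cysteine protease, was at 653.4, 834.9 and 699.5 CPM in RPMI plus B27 and at 335.6, 530.6 and 502.0 CPM in DMEM plus fatty acids, without overlap and lower in each replicate number. Its mean was 729.3 ± 94.3 CPM against 456.1 ± 105.3 CPM, a log2 fold change of -0.68 ± 0.20 with a 95% interval of -1.15 to -0.20 (adjusted p = 0.158). The adjusted p over the alternatives ran from 0.0497 to 0.333, the lowest being the DESeq2 Wald test, the only alternative that called any member. CTSD, the main aspartic protease of the lysosome, had the opposite order, at 214.3, 309.7 and 329.6 CPM against 343.7, 410.0 and 479.9 CPM (0.53 ± 0.20, adjusted p = 0.236). CTSL, another cysteine protease, was likewise without overlap, at 53.7, 71.7 and 65.2 CPM against 84.4, 93.5 and 80.2 CPM (0.44 ± 0.14, adjusted p = 0.171). Its 6 named pseudogenes could take some of its reads, so its level is uncertain. CTSA, the serine carboxypeptidase that protects NEU1, was at 136.7 ± 30.5 and 184.1 ± 27.9 CPM with overlap, and CTSZ, a carboxypeptidase, at 107.5 ± 20.6 and 114.8 ± 32.1 CPM.

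Set against each other within a library, where depth and scaling cancel, CTSB counts were 3.05, 2.70 and 2.12 times CTSD counts in RPMI plus B27 and 0.976, 1.29 and 1.05 times in DMEM plus fatty acids. Means of this ratio were 2.62 ± 0.47 and 1.11 ± 0.17, and per kilobase of exon 1.34 ± 0.24 and 0.564 ± 0.085. The pair was chosen after its values were seen, so the ratio carries no test. In RPMI plus B27 CTSB made up 55.3% ± 3.8 of the counts of the 6 cathepsins, against 36.2% ± 3.0 in DMEM plus fatty acids, while CTSD made up 21.4% ± 2.5 and 32.9% ± 2.2. Per kilobase of exon CTSB ranked 1 of the 39 genes in RPMI plus B27 (175.1) but 3 in DMEM plus fatty acids (109.5, next to ATP6V0D1 at 109.6, which it exceeded in 2 of 3 libraries), and CTSD ranked 2 (134.0) and 1 (193.7). CTSF was nearly absent, with 17, 3 and 7 counts in RPMI plus B27 and 9, 2 and 8 counts in DMEM plus fatty acids, which is too few to compare.

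**Figure D3:**
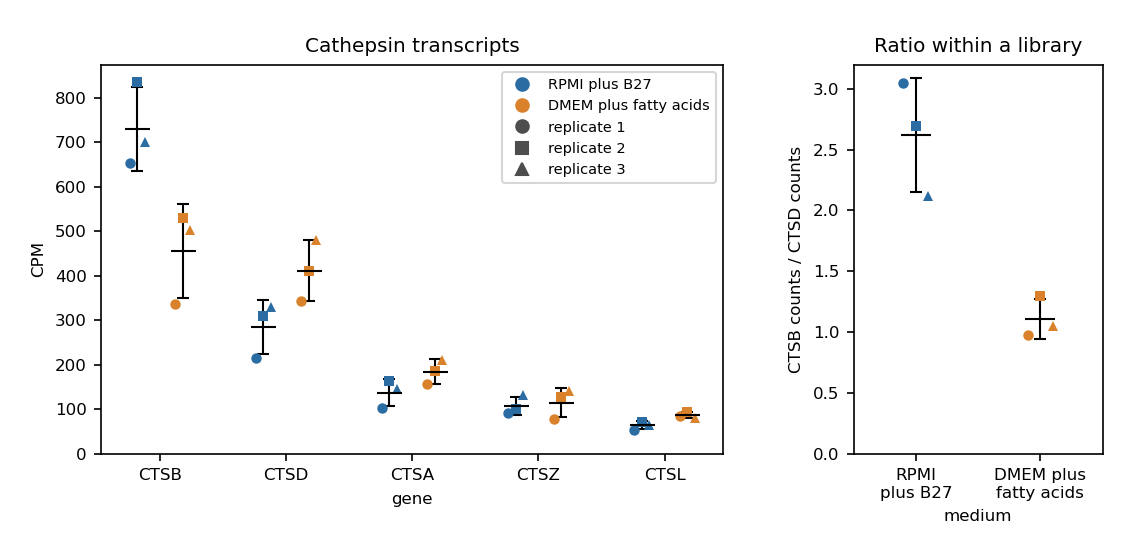
Left, CPM of the 5 tested cathepsins in each library (points, shape by replicate number) with mean and SD (bars, n = 3 per medium); right, the ratio of CTSB to CTSD counts within each library. CTSB points in DMEM plus fatty acids lie below all those in RPMI plus B27, CTSD points lie above, and the ratio is 2.12 to 3.05 against 0.976 to 1.29.

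Of the glycan and lipid hydrolases, NEU1, a sialidase, was at 34.1, 42.4 and 39.1 CPM in RPMI plus B27 and at 54.9, 45.9 and 47.8 CPM in DMEM plus fatty acids, without overlap (0.36 ± 0.14, adjusted p = 0.226). HEXA, the alpha subunit of hexosaminidase, averaged 108.0 ± 17.6 and 133.6 ± 26.9 CPM, and GAA, the acid glucosidase that degrades glycogen, 83.5 ± 4.2 and 96.3 ± 12.6 CPM. GAA was highest in DMEM plus fatty acids replicate 3 at 110.7 CPM, while the other 5 libraries lay between 79.9 and 91.3 CPM. LIPA, the acid lipase that frees fatty acids and cholesterol from lipoprotein and droplet lipid, was one of 3 lysosome genes with a negative estimate, at 13.5, 13.3 and 9.0 CPM against 10.7, 8.0 and 9.8 CPM (-0.33 ± 0.23, adjusted p = 0.492). GLA, the galactosidase lost in Fabry disease, was at 6.59 ± 0.78 and 6.60 ± 1.75 CPM.

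The proton pump genes cover the membrane sector (ATP6V0D1) and the catalytic sector (ATP6V1A, ATP6V1B2 and ATP6V1H). ATP6V1H, a regulatory subunit, was at 60.5, 72.7 and 64.5 CPM in RPMI plus B27 and at 79.5, 84.5 and 76.8 CPM in DMEM plus fatty acids (0.28 ± 0.11, adjusted p = 0.254). ATP6V1A, the subunit that hydrolyses ATP, also showed no overlap, at 38.0, 40.7 and 42.6 CPM against 44.4, 49.8 and 49.4 CPM (0.24 ± 0.12, adjusted p = 0.323). ATP6V1B2, its partner in the same ring, was at 81.4 ± 6.5 and 80.5 ± 5.1 CPM, with a 95% interval of the log2 difference of -0.28 to 0.25, against -0.03 to 0.51 for ATP6V1A, and the pair was not tested against each other. ATP6V0D1 was at 120.6, 176.9 and 184.7 CPM against 198.2, 221.6 and 184.7 CPM, and RPMI plus B27 replicate 1 was again the lowest. That library gave the lowest value of all 6 for each of the 4 pump genes.

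The same library was the lowest of 6 for 11 of the 17 tested lysosome genes and for 6 of the 21 autophagy genes, where it was the lowest for 27.6% of all genes tested. The median deviation of the lysosome genes from their mean over 6 libraries was -0.26 log2 units in it, against -0.01 and -0.04 in the other RPMI plus B27 libraries and 0.02, 0.18 and 0.14 in DMEM plus fatty acids replicates 1 to 3. In the cathepsins that median was -0.45, and in the lysosomal membrane genes -0.61. RPMI plus B27 replicate 1 also had the highest summed fibroblast and stromal markers (8491 CPM). The part of these markers in the deviation was not tested. Its share of counts from the 39 genes was the smallest (0.347%), which draws on the same counts and so partly restates the low values. Without that library the median log2 fold change was 0.13 for the lysosomal membrane, 0.26 for cathepsins, 0.18 for glycan and lipid hydrolases and 0.18 for the proton pump.

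**Figure D4:**
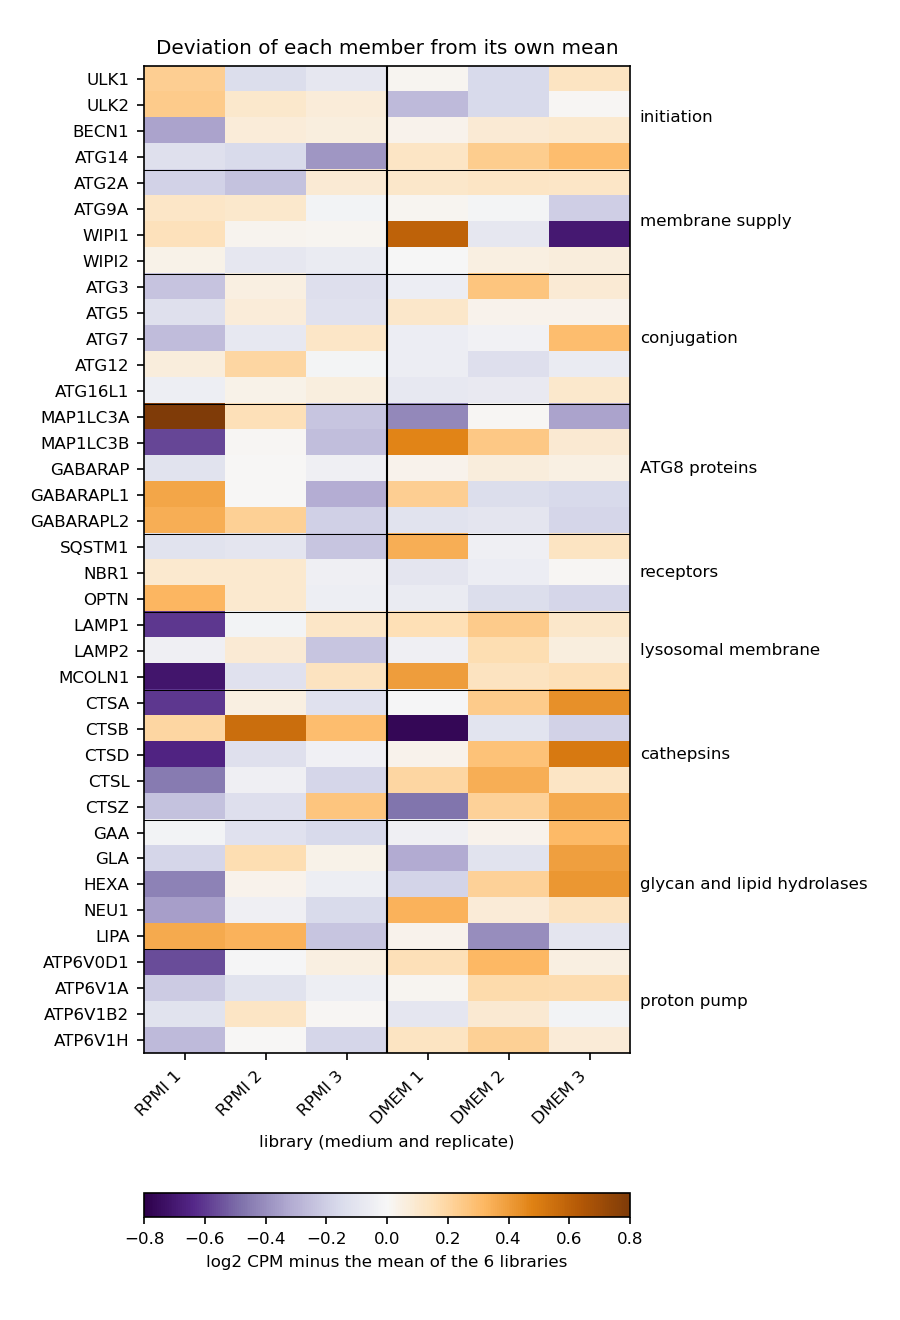
Deviation of each tested gene's log2 CPM from its own mean over the 6 libraries (colour, purple low and orange high), with libraries in columns and genes in rows by role. The column of RPMI plus B27 replicate 1 is purple over most lysosomal rows, CTSB and LIPA being orange there, and 1 value, of 0.83, lies beyond the colour scale.

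Members with CACGTG in the promoter entry were on the higher side in DMEM plus fatty acids. All 9 tested ones had a positive log2 fold change, with a median of 0.36, and they were ATG14, ATG3, LAMP1, MCOLN1, CTSA, CTSD, GAA, NEU1 and ATP6V0D1. Of the 22 tested members whose entry lacks it, 11 were positive, and the median was -0.00. The remaining tested members had no promoter entry, so they were not searched and are in neither count. They were CTSB (-0.68), MAP1LC3A (-0.55), ATP6V1B2 (-0.02), LAMP2 (0.12), ATP6V1A (0.24), ATP6V1H (0.28) and HEXA (0.31). Without RPMI plus B27 replicate 1 the counts were 9 of 9 and 12 of 22, with medians of 0.25 and 0.01. Scaling to total counts alone gave 9 of 9 and 16 of 22 positive, so the contrast with members lacking the string was smaller under that scaling. Most of the matches belong to lysosome genes, so the string and the role overlap. Over all genes tested the difference was slight. Of the 1456 genes with CACGTG in an entry 54.9% were positive (median 0.03) against 50.6% of the 10551 without (median 0.00). Of the 250 with TCACGTGA 59.2% were positive (median 0.08) against 50.9% of the 11757 without (median 0.01). The test called 2 of those 250 (0.8%), against 1.26% of the genes without that string.

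**Figure D5:**
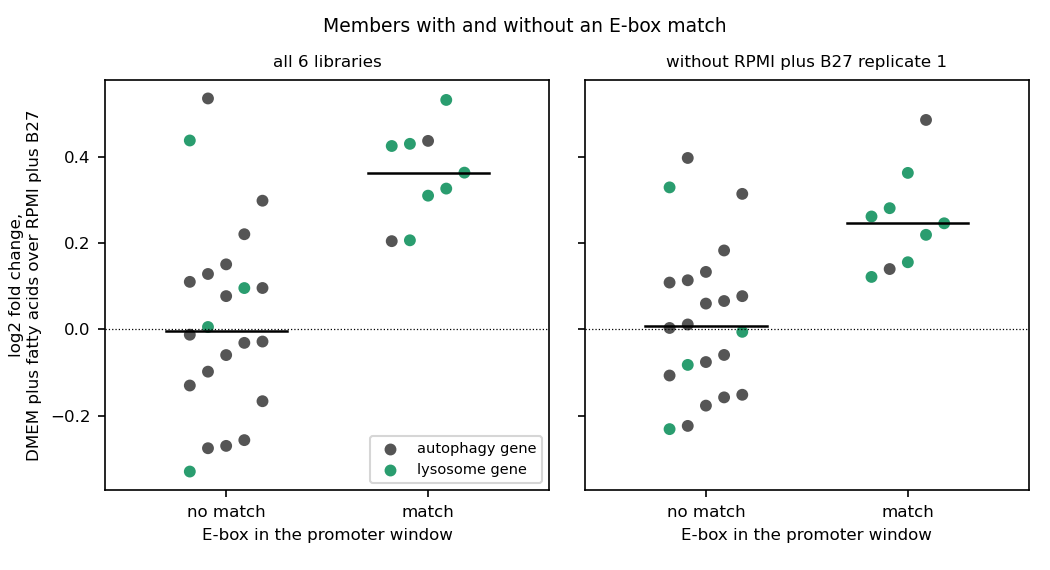
Log2 fold change (vertical axis) of the 31 tested members with a promoter entry, split by the presence of CACGTG, with all 6 libraries (left) and without RPMI plus B27 replicate 1 (right); grey points are autophagy genes, green points lysosome genes and lines medians. All 9 genes with the string lie above 0 in both panels, and those without lie on both sides of it.

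None of the 3 factors that bind this element passed the test at the transcript level. TFEB was at 35.1, 37.0 and 36.5 CPM in RPMI plus B27 and at 44.4, 44.9 and 37.9 CPM in DMEM plus fatty acids (0.23 ± 0.12, adjusted p = 0.375). TFE3 was at 50.4, 52.5 and 57.8 CPM against 50.8, 48.0 and 47.0 CPM (-0.14 ± 0.11, adjusted p = 0.554), and MITF at 110.0, 102.9 and 105.8 CPM against 114.2, 96.3 and 86.6 CPM (-0.10 ± 0.13, adjusted p = 0.727). As background, their activity depends largely on phosphorylation and nuclear entry, which RNA levels do not show.

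A wider list of 149 other autophagy and lysosome genes, of which 141 could be tested, held 2 called genes, a share close to the 1.36% of all genes. WDR45, a WIPI-family protein of the growing membrane, rose from 37.0, 39.9 and 38.6 CPM in RPMI plus B27 to 59.0, 55.5 and 60.9 CPM in DMEM plus fatty acids (0.60 ± 0.11, edgeR adjusted p = 0.0493). SORT1, a sorting receptor that carries hydrolases to the lysosome, fell from 452.0, 462.6 and 450.7 CPM to 278.1, 257.0 and 245.0 CPM (-0.81 ± 0.11, edgeR adjusted p = 0.0346). Replicates were tight for both, and the groups were well apart, but neither call held when any 1 of the 6 libraries was left out, with log2 fold changes of 0.57 to 0.64 and -0.86 to -0.76. With the replicate block 6 of the 141 passed, 4 higher (WDR45, CTSV, MCOLN3 and FNIP2) and 2 lower (LGMN and SORT1), again close to the share of all genes (4.78%). The WDR45 call was also lost with DESeq2 size factors and with a minimum of 10 counts in every library. The median over the 141 was 0.15, with 98 positive (69.5%, against 51.0% of all genes). The largest estimate of the 141 was for LAMP3, a lysosomal membrane gene (4.10 ± 0.80, edgeR adjusted p = 0.0609). It was at 0.19, 0.60 and 0.71 CPM in RPMI plus B27, near the detection limit. In DMEM plus fatty acids it was at 16.9, 2.61 and 6.31 CPM. Only the DESeq2 Wald test and the fit with no filter called it. In the list of other regulators, FNIP2, a partner of the folliculin complex that gates TFEB and mTORC1, was at 106.3, 86.5 and 65.7 CPM against 160.8, 161.9 and 152.8 CPM (0.88 ± 0.18, adjusted p = 0.0655). SESN2, a stress-induced inhibitor of mTORC1, was at 40.1, 57.1 and 65.0 CPM against 111.6, 82.9 and 88.6 CPM (0.80 ± 0.20, adjusted p = 0.108). Among other hydrolases, NAGLU, which degrades heparan sulfate, had a log2 fold change of 0.94 ± 0.20 (adjusted p = 0.0751) and IDS, another enzyme of that route, -0.72 ± 0.15 (adjusted p = 0.0780). The receptors of endoplasmic reticulum autophagy TEX264 and CCPG1 were at 0.52 ± 0.14 (adjusted p = 0.126) and 0.58 ± 0.18 (adjusted p = 0.168). The pump subunits ATP6V0A2 and ATP6V0E2 were at 0.55 ± 0.19 (adjusted p = 0.199) and 0.48 ± 0.23 (adjusted p = 0.330).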

How the data were processed

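Per the labels' protocols, RNA was column-purified with DNase treatment, and the mRNA library kit keeps strand. Each library has its own deposited file of raw counts, listed by gene symbol. The submitters' processing notes name STAR, HTSeq and the hg38 build. Versions, annotation and the strand setting are not given in the sources used here. Of the members, 20 overlap a gene model on the other strand and 13 one on the same strand in GENCODE 29, and 6 have pseudogenes named after them (CTSL, with 6, and BECN1, ATG3, ATG12, MAP1LC3B and SQSTM1), so their counts are uncertain to that extent. The htseq-count summary rows were left out.

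Genes were filtered with filterByExpr (minimum count 10, minimum total 15), scaled by TMM and tested with the quasi-likelihood test of edgeR 4.0.16 in R 4.3.3 over all 6 libraries with no covariate. P-values were adjusted by Benjamini-Hochberg over 16107 genes with a threshold of 0.05. Intervals are 95% intervals of that fit. Of all genes, 219 were called (47 higher, 172 lower), and only the members and related lists are reported. Levels per kilobase use the union of exons of GENCODE 29. Log2 CPM for deviations had a prior count of 2. Alternatives were a replicate block, DESeq2 1.42.0 size factors and Wald test, total counts, 2 other filters and leaving out each library. The main fit did not use the replicate numbers, so its errors, intervals and p-values ignore any pairing. Only the replicate block treated the numbers as pairing the libraries. Deviations from the mean of each medium correlated at 0.31, 0.43 and 0.37 for same-numbered libraries and at -0.24 to -0.14 for other numbers. Because they were centred within each medium, positive same-number correlations bring negative ones elsewhere. Every pair of libraries differed by more than sampling noise. Genes were named as the members, each sub-group's smallest p, called genes of the wider lists, otherwise the 2 smallest p in each, and TFEB, TFE3 and MITF. LAMP3 was added afterwards for its estimate, the largest of the wider list. The members and lists were chosen with earlier results of these data known. Protein sequences were not analysed here.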

Additional observations from a re-analysis of the deposited data

How the results depend on the processing

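No member was called under any alternative except CTSB with the DESeq2 Wald test (1 member). Of the members' values under alternatives, 431 kept direction and side of the threshold and 24 changed sign. Of the values of the other genes named by rule (without LAMP3), 132 kept both, 14 lost a call (WDR45 and SORT1), 9 gained one and 1 changed sign. The count over all genes went from 219 to 770 with the replicate block (pairing), 1237 with the DESeq2 Wald test, 539 with no filter, 119 with at least 10 counts in every library, and 3 to 131 with 1 library left out (3 without DMEM plus fatty acids replicate 3, 131 without RPMI plus B27 replicate 3). Genes lower in DMEM plus fatty acids were 78.5% of those called, and 63.4% with total counts only. The wider list went from 2 called to 6 with the block, 1 with DESeq2 size factors, 4 with total counts only, 12 with the Wald test, 6 with no filter, 1 with at least 10 counts in every library, and 0 with any 1 library left out. With total counts only, the medians became 0.22 for all members, 0.17 for initiation, 0.22 for conjugation and 0.012 for receptors. With 1 library left out, the medians ran from 0.020 to 0.094 for initiation, -0.039 to 0.15 for membrane supply, 0.032 to 0.14 for conjugation, -0.21 to 0.066 for ATG8 proteins, -0.14 to -0.076 for receptors, 0.13 to 0.46 for the lysosomal membrane, 0.26 to 0.53 for cathepsins, 0.099 to 0.27 for glycan and lipid hydrolases and 0.18 to 0.30 for the proton pump. Signs turned with total counts only for ULK1 (0.10), WIPI1 (0.061), ATG16L1 (0.083), GABARAPL1 (0.046), NBR1 (0.012), ATP6V1B2 (0.093) and MITF (0.0026), with no filter for ULK1 (0.0023), and for GLA with the replicate block (-0.019) and DESeq2 size factors (-0.0046). With 1 library left out, values ran from -0.083 to 0.11 for ULK1, -0.43 to 0.24 for WIPI1, -0.085 to 0.0015 for ATG16L1, -0.21 to 0.13 for GABARAPL1, -0.065 to 0.30 for CTSZ, -0.22 to 0.14 for GLA and -0.073 to 0.043 for ATP6V1B2. The block changed no member's call. The fits that leave 1 out also have fewer samples, and the cause of these shifts was not tested. With 3 libraries per medium, the size a member needed for a call ran from 0.55 to 1.68 log2 units with a median of 0.78, and CTSF was too low to test.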
